A study of Rattus norvegicus with 18 samples.

Results

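The genes described here are 45 cell cycle and DNA replication genes, chosen by name and measured in INS1E, a rat cell line that secretes insulin and comes from a tumour of beta cells. Of the 45 listed symbols, 42 stood in the authors' table of 13136 gene symbols. Where a symbol had 2 probe sets (Ccnb2, E2f3 and Rrm2) that with the higher mean was used, and both gave the same direction in the averaged glucose comparison. Rrm1, Tk1 and Birc5 were not analysed here. Of the 42, 41 were among the 9852 genes above a filter on low signal and were tested. Ccnd1, the cyclin D1 gene, was the exception, with a mean log2 signal of 4.88 and a range of 4.68 to 5.11 over the arrays, below the filter at 6.38. The members nearest above the filter were Gins2 with a mean of 6.83 and Ttk with a mean of 7.10.

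The study measured total RNA on 18 Affymetrix rat gene arrays, 3 in each of 6 groups, as log2 signals normalised by the authors. All cells were cultured in 11 mM glucose, and for 72 h before the assay they received calcidiol, calcitriol or no vitamin D, each form at 10 nM. Calcidiol is the form that circulates in blood, and calcitriol, which carries 1 more hydroxyl group, is the active hormone. All groups then spent 60 min in a Krebs-Ringer buffer without glucose, and of each pretreatment 1 group was then stimulated with 22 mM glucose for 60 min and the other was not. The 6 groups are called control, glucose, calcitriol, calcitriol-glucose, calcidiol and calcidiol-glucose below, and a number after a group name is the array's replicate number in the labels. INS1E is a single tumour line that divides in culture, and all groups were used after 4 passages. Whether a group's arrays stem from separate cultures is not said in the labels. The p-values therefore reflect the spread among these samples alone, and that spread may be technical.

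The arrays' median log2 signals ran from 7.52 to 7.63. Precision is limited by how many arrays there are. Of 16 beta cell markers, 14 were in the table and all 14 lay above the filter. Of 34 markers of other islet, acinar, ductal, fibroblast, endothelial and immune cells, 14 were in the table and 5 lay above the filter, among them Gcg, the glucagon gene, with a mean of 11.5. Sst, Ppy, Ghrl, Irx2, Cela1, Col1a1, Col1a2, Col3a1 and Cd68 lay below it. The summed signal of the other-cell markers, as log2, ranged from 12.01 to 12.61 in the calcidiol and calcidiol-glucose groups and from 12.05 to 12.48 in the other 4 groups, so the groups overlapped. Of the arrays numbered 3, glucose 3, calcidiol-glucose 3 and calcitriol 3 went against their labels in Txnip, and the others did not. Txnip, which glucose induces in beta cells, was at 10.33 on glucose 3 and 10.23 on calcidiol-glucose 3, against 12.18 to 12.33 on the other stimulated arrays. On calcitriol 3, labelled as unstimulated, it was at 12.11, against 9.88 to 10.53 on the other unstimulated arrays. For the members' counts and medians and for the members described in full, values on the 12 arrays numbered 1 and 2 are therefore given too.

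A dividing cell licenses its replication origins in G1, when Cdc6 and Cdt1 load the Mcm helicase, and starts DNA synthesis once cyclin E and Cdk2 are active and E2F factors are released to transcribe S phase genes. Cyclin A, cyclin B, Cdk1 and the Aurora and Polo kinases then carry the cell through G2 into mitosis, where the centromere protein Cenpa and the Ndc80 complex attach chromosomes to the spindle and the Bub1 kinases hold anaphase until all are attached. Adult beta cells rarely divide, and glucose is known to promote beta cell division over days, through cyclin D2 among others. In bulk RNA a lower signal in every cell and a smaller share of cells in a cycle phase cannot be told apart.

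Glucose for 60 min, averaged over the 3 pretreatments (9 against 9 arrays), was accompanied by lower signals of Cdt1, Ccne1, E2f3 and Hjurp, the 4 of 41 members called by limma at an adjusted p under 0.05. No member was called higher. Over all genes 332 of 9852 (3.37%) were called, of them 194 (1.97%) lower, against 9.76% of the members. The differences were small, between 10.3% and 18.7% of the unstimulated signal for the called members. Of the 41 members, 40 had a difference below 0, the exception being E2f1, as had 67.0% of all genes, and the members' median was -0.089 against -0.030 over all genes. With each array centred on its median 35 members were below 0, against 49.6% of all genes, and 1 (Cdt1) was called, against 3.25% of all genes. With quantile normalization 39 members were below 0, against 55.5% of all genes, and 2 (Cdt1 and E2f3) were called, against 3.37%. In both of these fits the members' share called lay near the background.

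With the replicate number as a block, 11 members were called, all lower, against 9.55% of all genes called and 6.61% called lower. They were Mcm3, Mcm5, Mcm6, Cdt1, Ccne1, Cdk2, E2f3, Hjurp, Cenpa, Bub1b and Nuf2, or 26.8% of those tested. On the 12 arrays numbered 1 and 2, Cdt1, Ccne1, Cdk2 and E2f3 were called, and here the members' 9.76% was near the background of 9.94% of all genes, with 6.18% lower. With the block on those 12 arrays the count was 12 (29.3%), all lower, against 15.9% of all genes and 10.8% lower. The count of 4 depended on single arrays. It was 0 without control 1, glucose 2, calcitriol 1 or calcitriol 2, where 30 to 37 genes in all were called, and 1 (E2f3) without control 2, control 3, glucose 1, calcitriol-glucose 1, calcitriol-glucose 2, calcidiol 1, calcidiol-glucose 1 or calcidiol-glucose 2, where 58 to 116 genes were. Cdt1 and E2f3 were called without calcitriol 3 (529 genes) or calcidiol 2 (157 genes), and 3 to 5 members without each of the remaining 4 arrays (383 to 806 genes). It was also 0 without all arrays numbered 1 and without all arrays numbered 2, where limma called 0 genes.

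The promoters of the 4 called members are shown because these genes were lower together, beside that of Ccnb1, the cyclin B1 gene, for contrast. Windows reach from 250 bases before to 50 bases after the start of the RefSeq gene on assembly GRCr8. Capitals mark an E2F site, a CCAAT box or the cell cycle homology region of mitotic genes. The E2F site was searched as TTCCCGC and in the related forms TTCGCGC and also TTGCCGC and lastly TTGGCGC, the box as the letters of its name and the region as TTTGAA, each read on both strands, so that a site on the other strand shows its reverse complement. Matches of different motifs do not overlap in these windows. The Cdt1 window lies at chr19:67528999-67529298 on the plus strand, that of Ccne1 at chr1:99927860-99928159 on the minus strand, that of E2f3 at chr17:34810166-34810465 on the plus strand, that of Hjurp at chr9:96315409-96315708 on the minus strand and that of Ccnb1 at chr2:33655176-33655475 on the minus strand.
Cdt1: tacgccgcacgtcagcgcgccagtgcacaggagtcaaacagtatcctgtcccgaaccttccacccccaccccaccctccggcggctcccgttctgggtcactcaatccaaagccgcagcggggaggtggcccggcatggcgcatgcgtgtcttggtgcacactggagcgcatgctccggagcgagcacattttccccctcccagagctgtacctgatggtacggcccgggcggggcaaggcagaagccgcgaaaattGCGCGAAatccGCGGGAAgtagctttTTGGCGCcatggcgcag
Ccne1: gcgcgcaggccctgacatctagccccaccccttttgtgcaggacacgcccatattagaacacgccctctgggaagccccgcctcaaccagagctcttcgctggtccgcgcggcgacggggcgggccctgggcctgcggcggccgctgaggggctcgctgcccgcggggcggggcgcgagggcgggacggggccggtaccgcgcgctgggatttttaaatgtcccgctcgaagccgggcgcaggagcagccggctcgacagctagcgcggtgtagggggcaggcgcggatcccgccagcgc
E2f3: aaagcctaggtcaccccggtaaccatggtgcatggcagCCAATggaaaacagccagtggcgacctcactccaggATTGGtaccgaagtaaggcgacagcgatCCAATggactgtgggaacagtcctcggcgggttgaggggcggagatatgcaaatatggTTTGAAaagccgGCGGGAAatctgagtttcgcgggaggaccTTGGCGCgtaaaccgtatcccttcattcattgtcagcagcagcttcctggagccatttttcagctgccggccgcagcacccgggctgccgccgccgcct
Hjurp: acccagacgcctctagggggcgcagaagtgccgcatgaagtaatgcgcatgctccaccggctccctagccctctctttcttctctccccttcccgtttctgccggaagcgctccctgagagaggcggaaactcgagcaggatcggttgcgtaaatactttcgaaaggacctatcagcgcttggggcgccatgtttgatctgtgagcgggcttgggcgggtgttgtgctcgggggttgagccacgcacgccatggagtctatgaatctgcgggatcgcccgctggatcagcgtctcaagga
Ccnb1: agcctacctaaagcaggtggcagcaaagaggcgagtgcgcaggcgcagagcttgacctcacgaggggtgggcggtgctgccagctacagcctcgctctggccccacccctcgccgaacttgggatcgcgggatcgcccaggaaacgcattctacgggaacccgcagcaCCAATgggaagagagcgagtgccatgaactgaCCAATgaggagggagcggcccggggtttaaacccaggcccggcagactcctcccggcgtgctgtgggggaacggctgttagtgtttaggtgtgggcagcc

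Cdt1 held 3 matches to the E2F letters, all after the start site, and E2f3 held 2, with 3 CCAAT boxes and 1 homology region upstream of them. Ccnb1 held 2 CCAAT boxes. In the windows of Ccne1 and Hjurp none of these letters occurred, which says nothing of the factors. RefSeq windows matched 36 of the 45 members. Among these 38.9% held the E2F letters, against 10.0% of 27457 promoters and 18.8% of the 7197 tested genes with a window. CCAAT was in 63.9% of the members, against 37.7% of promoters and 37.9% of tested genes, and TTTGAA in 41.7%, against 18.1% and 10.8%. The averaged glucose difference had a median of -0.089 over the 13 tested members with the E2F letters and -0.11 over the 20 without. For CCAAT the medians were -0.10 and -0.099, and for TTTGAA -0.10 and -0.10, so members with and without each motif lay close together.

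Cdt1, which helps to load the Mcm helicase onto origins and is destroyed when S phase begins, was at 7.88, 7.77 and 7.81 on the control arrays and at 7.46, 7.58 and 7.59 on the glucose arrays. After calcitriol it was at 7.91, 7.71 and 7.63 without glucose and at 7.47, 7.28 and 7.56 with it. After calcidiol it was at 7.99, 7.65 and 7.63 without glucose and at 7.28, 7.37 and 7.69 with it. The groups with and without glucose did not overlap within the control and calcitriol pretreatments, and within calcidiol only calcidiol-glucose 3 lay among the unstimulated arrays. The averaged difference was -0.30 ± 0.067 (SE, 9 against 9 arrays, limma adjusted p = 0.033, 95% interval -0.44 to -0.16), or an 18.7% lower signal. On the 12 arrays it was -0.41 (limma adjusted p = 0.0049). Cdt1 was the member with the lowest averaged difference in both fits.

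Ccne1, the gene of cyclin E1, the partner of Cdk2 at S phase entry, was at 8.71, 8.63 and 8.85 in control and at 8.22, 8.41 and 8.69 with glucose. It was at 8.61, 8.58 and 8.63 after calcitriol and at 8.11, 8.16 and 8.54 with glucose added. After calcidiol the values were 8.63, 8.43 and 8.44, and with glucose 8.24, 8.30 and 8.46. In each stimulated group array 3 was the highest, and the 3 stimulated arrays numbered 1 lay at or below 8.24. The averaged difference was -0.26 ± 0.069 (SE, 9 against 9 arrays, limma adjusted p = 0.0495), a 16.7% lower signal. On the 12 arrays it was -0.36 (limma adjusted p = 0.0020), with all stimulated arrays at 8.41 or below and all others at 8.43 or above.

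E2f3, an E2F factor that activates S phase genes, was at 7.66, 7.51 and 7.50 in control and at 7.40, 7.40 and 7.48 with glucose. After calcitriol it was at 7.54, 7.64 and 7.54, and with glucose all 3 arrays lay between 7.30 and 7.31. After calcidiol it was at 7.51, 7.45 and 7.42, and with glucose at 7.41, 7.35 and 7.32. Within every pretreatment the arrays labelled stimulated lay below the unstimulated ones without overlap, and how many of all genes did so was not counted. All 9 same-numbered differences were below 0, as for 3.54% of all genes. These include the pairs numbered 3, in which Txnip did not rise as in the other pairs. The averaged difference of -0.17 ± 0.033 (SE, 9 against 9 arrays, limma adjusted p = 0.021, 95% interval -0.24 to -0.098) was an 11.0% lower signal, and the second E2f3 probe set gave -0.15. Its value on the 12 arrays was -0.19 (limma adjusted p = 0.022).

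Hjurp, the chaperone that deposits Cenpa at centromeres, was at 8.82, 8.71 and 8.83 in control and at 8.78, 8.79 and 8.71 with glucose, so these 2 groups overlapped. After calcitriol it was at 8.90, 8.81 and 8.92, and with glucose at 8.59, 8.42 and 8.61, without overlap. After calcidiol it was at 8.93, 8.73 and 8.65 against 8.67, 8.64 and 8.67. The stimulated arrays after calcitriol were thus the lowest of all 18. The averaged difference was -0.16 ± 0.042 (SE, 9 against 9 arrays, limma adjusted p = 0.0495), a 10.3% lower signal. On the 12 arrays it was -0.17 (limma adjusted p = 0.071).

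**Figure D1:**
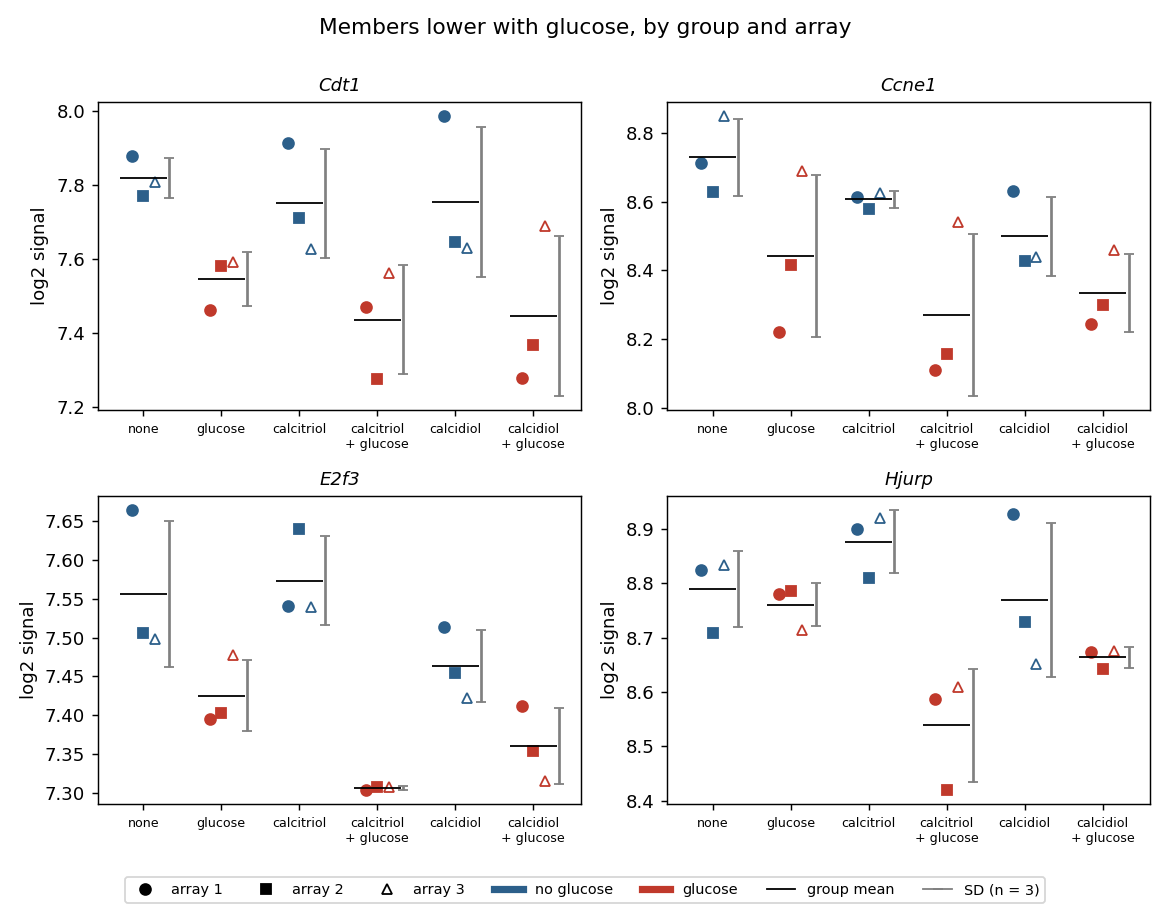
The log2 signal of Cdt1, Ccne1, E2f3 and Hjurp on each array, by group on the horizontal axis, with marker shape for the replicate number, red for glucose, a black line for the group mean and a grey bar for its SD (n = 3). E2f3 separates by the glucose label within each pretreatment, Hjurp separates after calcitriol, and the open triangles of Ccne1 lie highest in each stimulated group.

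Among the 10 origin licensing and helicase genes, all tested, 1 was called, against 3.37% of all genes. All 10 differences were below 0, with a median of -0.10, against 67.0% of all genes below 0. Cdc6, the partner of Cdt1 in loading, had a low, median and high of 7.36, 7.83 and 8.04 on the 9 unstimulated arrays and 7.06, 7.65 and 7.81 on the 9 stimulated ones. The difference of -0.26 had an interval of -0.50 to -0.032 and did not pass on the 18 arrays (limma adjusted p = 0.20), with or without the block. Mcm3, Mcm5 and Mcm6, subunits of the helicase ring, had differences of -0.16, -0.13 and -0.14, and with the block they passed (limma adjusted p = 0.0499, 0.039 and 0.031). The other ring subunits Mcm2, Mcm4 and Mcm7 lay between -0.043 and -0.010. Cdc45 and Gins2, which join the ring to form the active helicase, had -0.053 and -0.084. For Mcm5 and Mcm6 all 9 same-numbered differences were below 0, as they were for 5 members in all and for 3.54% of all genes.

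At the replication fork, none of the 4 tested genes was called. Rrm2, the small subunit of ribonucleotide reductase, which makes deoxynucleotides, ranged from 10.08 to 10.62 (median 10.47) without glucose and from 10.06 to 10.46 (median 10.34) with it. The ranges overlapped over most of their width, and the difference of -0.16 had a limma adjusted p of 0.22. Tyms, the thymidylate synthase gene, had -0.089 and Rfc4, a subunit of the clamp loader, -0.041. Pcna, the sliding clamp and a common marker of proliferation, ranged from 10.31 to 10.54 without glucose and from 10.34 to 10.62 with it. Its difference was -0.0074 with a 95% interval of -0.096 to 0.081, and its sign turned on the 12 arrays (0.0022) and with median centring (0.023).

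Of the 8 cyclins, kinases and E2F factors of G1 and S phase entry, 7 were tested and 2 were called, against 3.37% of all genes. Cdk2, the kinase that cyclin E activates, had -0.18 (limma adjusted p = 0.12). It passed on the 12 arrays at -0.22 (limma adjusted p = 0.031) and with the block on all 18 (limma adjusted p = 0.027), and all 9 of its same-numbered differences were below 0. Ccne2, the second cyclin E gene, had -0.068 and Cdk4, the kinase of the D cyclins, -0.027. E2f1, the other E2F factor listed, had 0.036, the only value above 0. Ccnd2, the gene of cyclin D2, was at 11.36 to 11.71 (median 11.59) on the unstimulated arrays and at 11.34 to 11.80 (median 11.59) on the stimulated ones. Its difference of -0.0021 had an interval of -0.13 to 0.13, and it was 0.031 on the 12 arrays and 0.029 with median centring.

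No gene of the S, G2 and mitotic entry group was called among 6 tested. All 6 differences were below 0 (median -0.078), against 67.0% of all genes. Ccnb1, which with Cdk1 starts mitosis, ranged from 9.91 to 10.42 (median 10.30) without glucose and from 9.99 to 10.29 (median 10.17) with it. Its difference was -0.12 (limma adjusted p = 0.25). Cdk1 itself ranged from 8.67 to 9.17 and from 8.67 to 9.14, a difference of -0.060. Plk1, the Polo kinase, had -0.10, and Ccnb2, Aurka (Aurora A) and Ccna2 (cyclin A2) lay between -0.083 and -0.062.

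Hjurp was the 1 gene called among 11 tested of the centromere, kinetochore and checkpoint group, against 3.37% of all genes called. This group had the lowest median of the 6 groups, -0.15. Cenpa, the centromeric histone that Hjurp carries, ranged from 7.56 to 7.96 without glucose and from 7.46 to 7.74 with it. Bub1b, the checkpoint protein BubR1, ranged from 7.96 to 8.45 and from 7.62 to 8.08. Their differences of -0.19 and -0.24 did not pass (limma adjusted p = 0.084 and 0.085) and did with the block (0.027 and 0.012), as did Nuf2 of the Ndc80 complex (-0.15, block 0.028). Cenpe, Cenpf, Cdc20, Ndc80, Bub1, Ttk and Aurkb lay between -0.16 and -0.050. Of the 3 chromosome and spindle genes none was called. Kif11, a spindle motor, had -0.10 and Top2a, the mitotic topoisomerase, -0.063. Mki67, the proliferation marker Ki-67, ranged from 10.32 to 10.63 (median 10.46) without glucose and from 10.32 to 10.65 (median 10.47) with it. Its difference of -0.032 had an interval of -0.15 to 0.085 and turned to 0.023 on the 12 arrays.

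**Figure D2:**
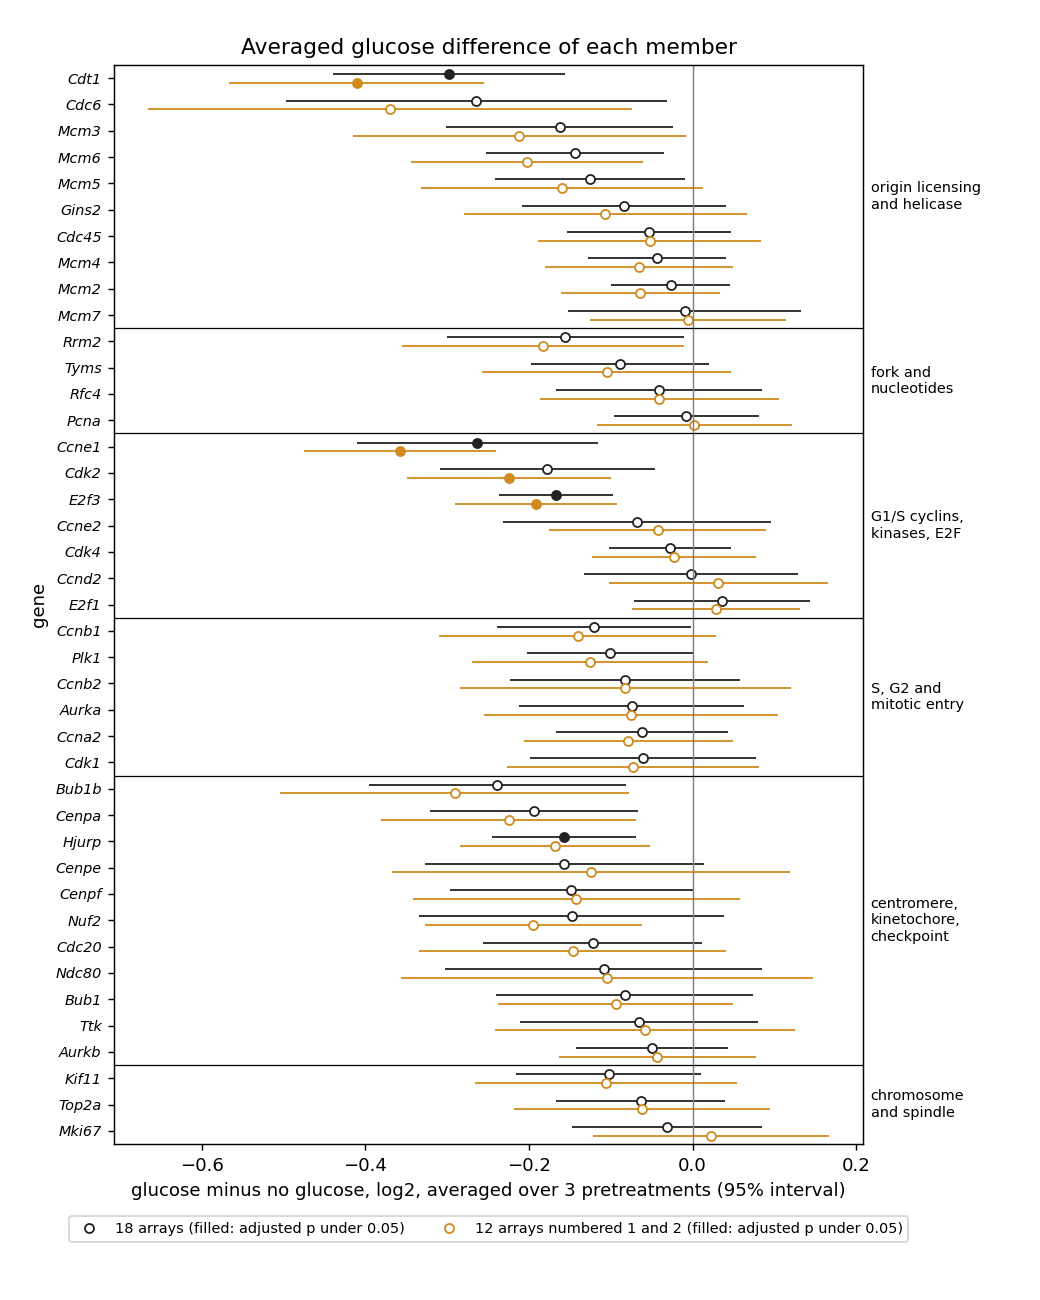
The averaged glucose difference of each tested member on the log2 scale (horizontal axis, 95% interval) by role, for all 18 arrays in black and for the 12 arrays numbered 1 and 2 in orange. Filled points have an adjusted p under 0.05. All but E2f1 lie left of 0 in black, and Cdk2 is filled in orange alone.

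Within single pretreatments limma called 0 of 9852 genes (0.0%) for glucose without vitamin D, after calcitriol or after calcidiol. At an unadjusted p under 0.05 there were 4 members without vitamin D (6.08% of all genes), 13 after calcitriol (9.87%) and 1 after calcidiol (4.66%), all lower. The members' medians were -0.061, -0.17 and -0.027, and 34, 40 and 28 of the 41 were below 0, against 62.1%, 64.7% and 62.3% of all genes. These medians moved with single arrays. Without vitamin D the median was -0.11 when control 2 was left out. After calcidiol it was 0.026 without calcidiol 1 and 0.023 without calcidiol-glucose 2, and -0.11 without calcidiol 2. After calcitriol it stayed between -0.25 and -0.14. The 13 members became 2 without calcitriol-glucose 2 (5.28% of all genes), 5 without calcitriol 1 (4.49%) and 22 without calcitriol-glucose 3 (13.7%). The 3 medians on the 12 arrays were -0.067, -0.23 and -0.042. After calcitriol Hjurp had -0.34 (interval -0.49 to -0.19) and E2f3 -0.27 (interval -0.39 to -0.15), both with a limma adjusted p of 0.40. Ndc80, which forms the microtubule-binding rod of the kinetochore, had -0.38 there, 0.058 without vitamin D and -0.0018 after calcidiol. Hjurp on the 12 arrays had -0.35 and E2f3 -0.29 after calcitriol (limma adjusted p = 0.092 and 0.11), and Ndc80 -0.49 (0.27). There 186 genes (1.89%) were called, 57 (0.579%) of them lower, with Ccne1 the 1 member among them at -0.46 (limma adjusted p = 0.032). With the block on the 12 arrays 6 members were called after calcitriol, all lower, against 4.54% of all genes called and 2.27% called lower.

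Whether the glucose difference itself changed with vitamin D was tested as an interaction, and limma called 0 genes (0.0%) for either form. For calcitriol 38 of the 41 interaction values were below 0, against 54.8% of all genes, with a median of -0.11, and 1 member (0.670% of all genes) had an unadjusted p under 0.05. It was Hjurp, at -0.31 (interval -0.53 to -0.094, limma adjusted p = 1.00). Without calcitriol-glucose 2 alone 27 values were below 0 with a median of -0.036, and without control 2 the median was -0.052. The median on the 12 arrays was -0.17, with 38 values below 0 and Hjurp at -0.37 (limma adjusted p = 1.00). For calcidiol the median was 0.028, between -0.046 and 0.086 when single arrays were left out, and 0 members were under that p (0.325% of all genes). By replicate number, the members' median glucose difference after calcitriol was -0.25, -0.25 and -0.063 on arrays 1, 2 and 3, against -0.011, -0.10 and 0.0011 over all genes. Without vitamin D it was -0.095, -0.0085 and -0.095, against -0.035, -0.011 and -0.033 over all genes. After calcidiol it was -0.095, 0.0061 and -0.017, against -0.090, 0.013 and -0.0050, so that without vitamin D on array 2 and after calcidiol on arrays 1, 2 and 3 the members lay near all genes. The values after calcitriol were lower on arrays 1 and 2 than on array 3. On calcitriol 3 and on the stimulated arrays glucose 3 and calcidiol-glucose 3 the Txnip signal went against the label, as given above. The part of these arrays in the interaction was not tested beyond leaving them out, which left 0 members called.

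**Figure D3:**
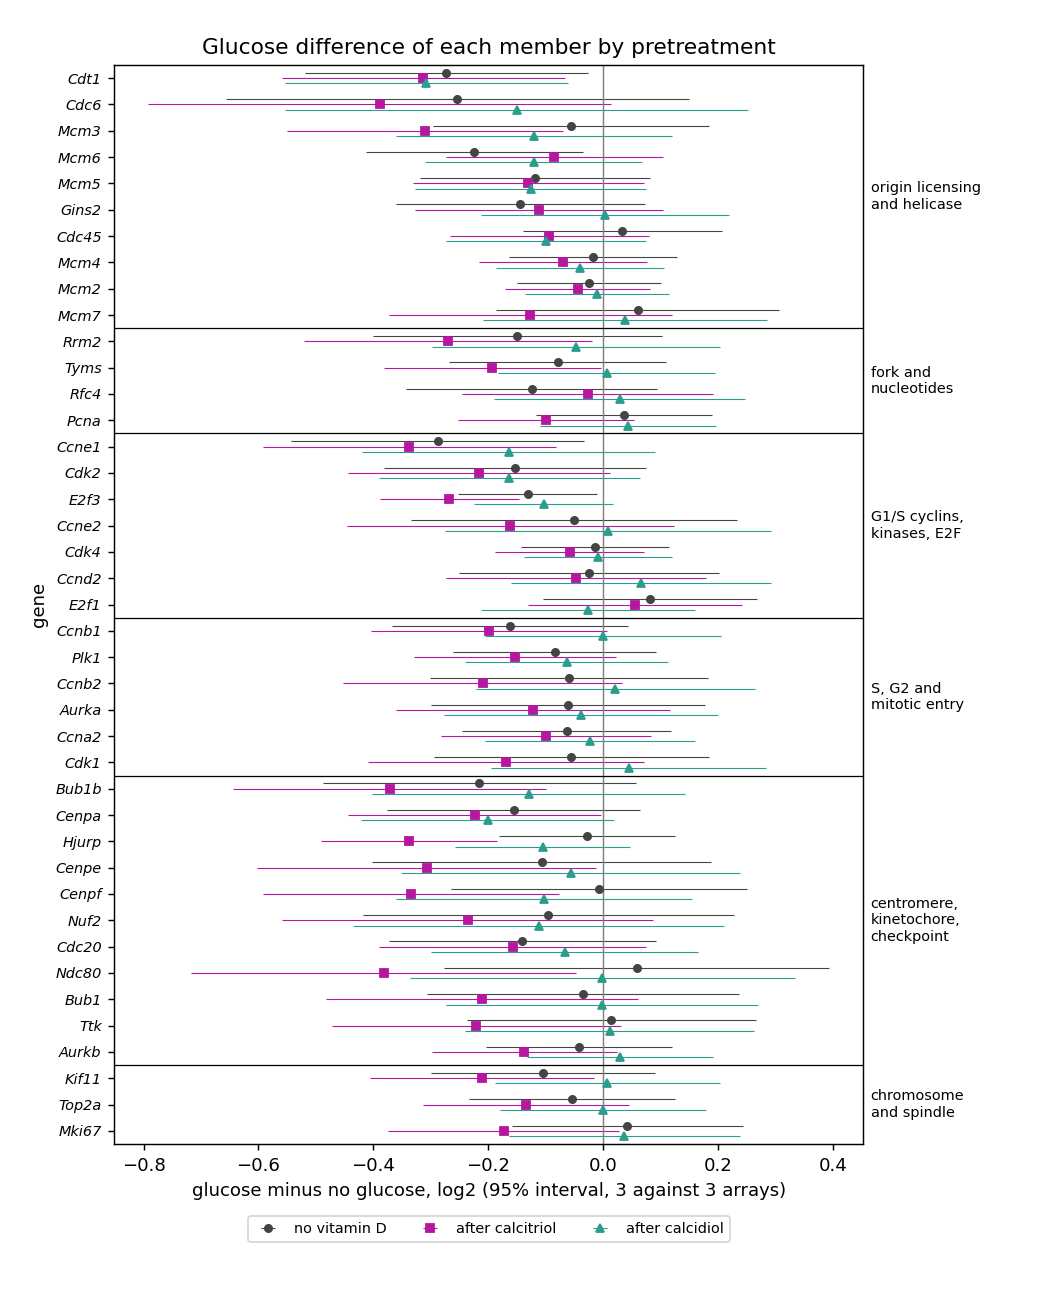
The glucose difference of each tested member on the log2 scale (horizontal axis, 95% interval, 3 against 3 arrays) without vitamin D in grey, after calcitriol in purple and after calcidiol in green, by role. The purple points have a median of -0.17 and lie left of 0 for 40 of 41 members, and their intervals overlap those after calcidiol for all 41 and those without vitamin D for 40, Hjurp being the exception.

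Calcitriol and calcidiol for 72 h were each compared with no vitamin D, within each glucose state and averaged over both, and limma called 0 of 9852 genes (0.0%) in all 6 comparisons. With calcitriol, averaged, 40 of 41 members were below 0, against 60.4% of all genes, with a median of -0.054, and 1 member had an unadjusted p under 0.05, against 0.609% of all genes. The median was -0.028 without calcitriol-glucose 2, -0.092 without calcitriol-glucose 3 and -0.073 on the 12 arrays. With calcidiol, averaged, 39 members were below 0, against 63.6% of all genes, with a median of -0.099, and 7 had an unadjusted p under 0.05, against 6.70% of all genes. These were Cdc45, Mcm5, Mcm6, Rfc4, Ccnb1, Cdk1 and Aurka, chosen here after their values were seen. Their number was 3 without glucose 2, calcidiol 2 or calcidiol-glucose 2, where 5.03% to 5.94% of all genes were under that p. It was 4 without control 1 or control 3 (4.54% and 5.31%), 11 without calcidiol-glucose 1 (9.43%) and 12 without calcidiol 1 (11.3%). The median was -0.056 without calcidiol 2. The median on the 12 arrays was -0.090 and the number 5, against 5.57% of all genes. The control and glucose arrays serve in both comparisons.

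Cdc45 had the smallest p among members with calcidiol. It was at 8.87, 8.82 and 8.94 in control, at 8.97, 8.91 and 8.86 with glucose, at 8.94, 8.58 and 8.59 after calcidiol and at 8.69, 8.59 and 8.53 after calcidiol with glucose. Calcidiol 1 lay among the arrays without vitamin D and the other 5 calcidiol arrays below them. The averaged difference was -0.24 ± 0.058 (SE, 6 against 6 arrays, limma adjusted p = 0.72, 95% interval -0.37 to -0.12), and on the 12 arrays -0.19 (limma adjusted p = 0.87). With calcitriol, where it was at 8.86, 8.83 and 8.84 and with glucose at 8.77, 8.68 and 8.81, the difference was -0.099 (limma adjusted p = 1.00), and on the 12 arrays -0.11. Rfc4 was at 8.72, 8.53 and 8.77 in control, at 8.51, 8.56 and 8.33 after calcitriol and at 8.41, 8.18 and 8.57 after calcidiol. It was at 8.62, 8.38 and 8.65 with glucose, at 8.51, 8.31 and 8.51 in calcitriol-glucose and at 8.44, 8.41 and 8.39 in calcidiol-glucose. Its averaged differences of -0.16 with calcitriol and -0.21 with calcidiol did not pass (limma adjusted p = 1.00 and 0.72). Over the 12 arrays they were -0.094 and -0.20. Kif11 with calcitriol had -0.11, Aurkb -0.089 and Cdk1 -0.12, each with an interval that held 0.

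Replicate numbers differed in these comparisons. The members' median difference with calcidiol without glucose was 0.022, -0.21 and -0.14 for the arrays numbered 1, 2 and 3, against -0.0093, -0.029 and -0.029 over all genes. With glucose it was -0.027, -0.18 and -0.069, against -0.065, 0.00030 and -0.0056. With calcitriol and glucose it was -0.11, -0.21 and -0.022, against 0.014, -0.069 and 0.0092. Leaving out calcidiol 1, which was high for most members, gave 1 member called with calcidiol averaged over glucose states, Cdc45, the 1 gene (0.0102%) called of all 9852. At an unadjusted p under 0.05 there were 12 members in that fit, against 11.3% of all genes. Leaving out any other single array gave 0 members called.

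Calcitriol and calcidiol, which differ by the hydroxyl group at carbon 1 and were given at the same dose and time, were compared directly in 3 comparisons over the 41 members, with p-values adjusted over all 9852 genes. Limma called 0 genes (0.0%) in each. Averaged over glucose states, calcitriol was above calcidiol for 32 members and below it for 9, against 41.8% of all genes below. The median was 0.033, against 0.012 over all genes. An unadjusted p under 0.05 was found for 2 members (2.95% of all genes). These were Cdc45 at 0.15 (interval 0.023 to 0.27) and Mcm6 at 0.13 (interval 0.0011 to 0.27), both with a limma adjusted p of 0.997. Over the 12 arrays these were 0.086 and 0.18 (limma adjusted p = 1.00 for both), the members' median was 0.028, and 1 member was under that p. For the other 39 the interval on the 18 arrays held 0. The half-width of a member's interval had a median of 0.16 and ran from 0.085 to 0.28, which sets the size of difference that each member could show. The averaged median was 0.00040 without calcidiol 2 and 0.070 without calcidiol 1. Without glucose 39 of 41 values were above 0 and 2 below, against 40.5% of all genes below. Their median was 0.11 (0.037 without calcidiol 2 and 0.18 without calcidiol 1), against 0.016 over all genes. With glucose 10 were above 0 and 31 below, against 47.4% of all genes below. Their median of -0.039, against 0.0055 over all genes, turned to 0.024 without calcitriol-glucose 2 and was -0.093 without calcidiol-glucose 2. Over the 12 arrays these medians were 0.11 and -0.078. No member had an unadjusted p under 0.05 in either state, against 0.974% and 3.14% of all genes.

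**Figure D4:**
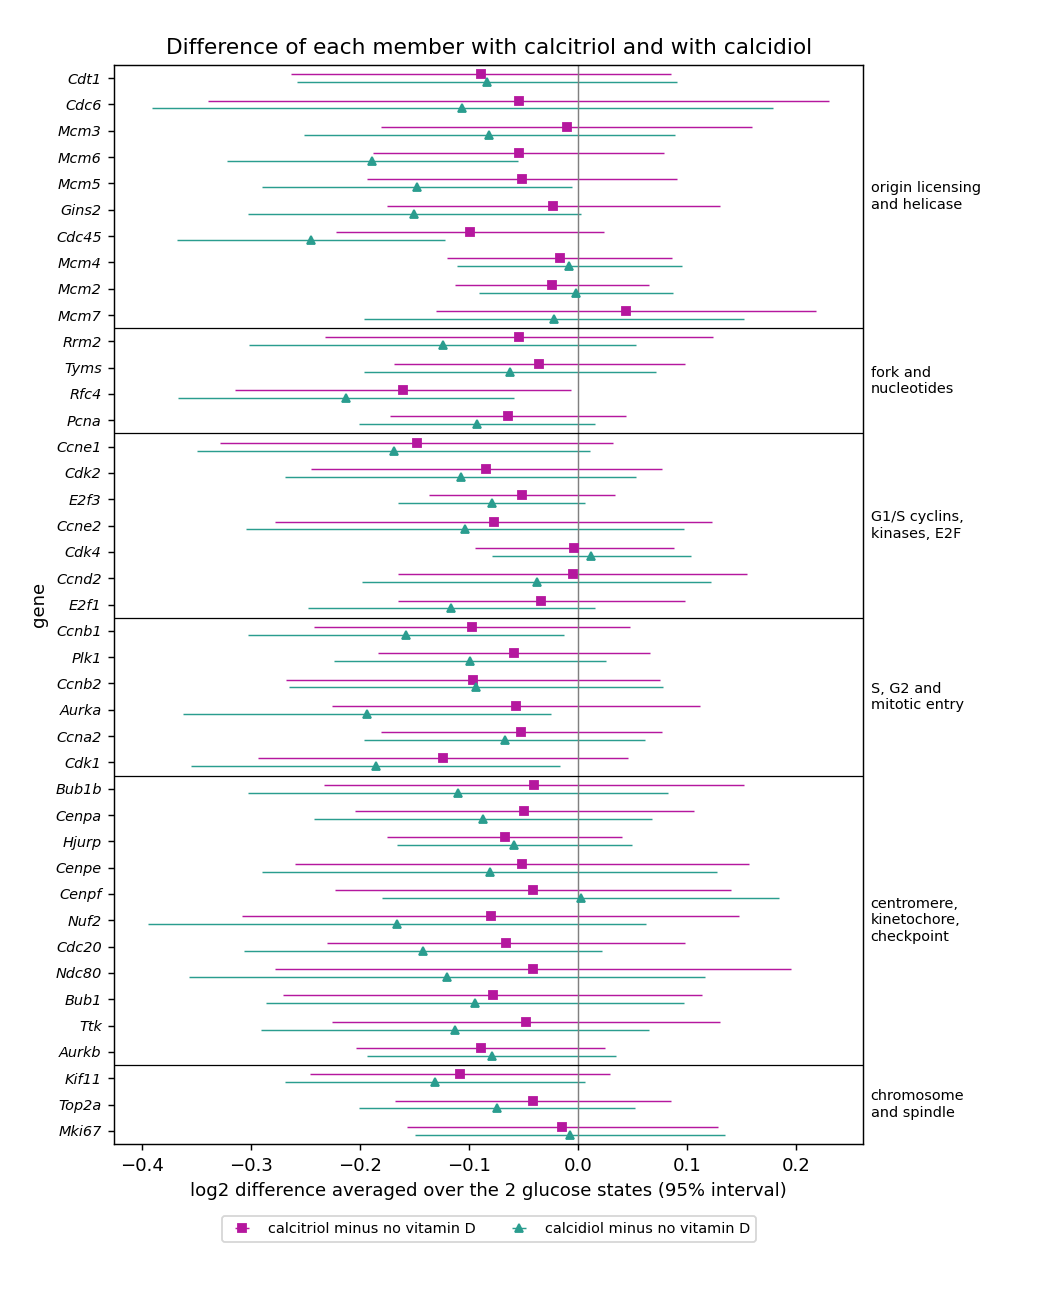
The log2 difference of each tested member (horizontal axis, 95% interval, 6 against 6 arrays) with calcitriol in purple and with calcidiol in green against no vitamin D, averaged over both glucose states, by role. Most points lie left of 0 for both forms, Cdc45 lies farthest left for calcidiol, and no member has an adjusted p under 0.05.

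The members varied together from array to array. Over the 18 arrays, deviations from the group means had a mean pairwise Pearson r of 0.46 among the 41 members, against 0.070 among all genes, and 762 of 820 pairs were above 0. These points share the same RNA samples and arrays, so r is given as a description. The mean r was 0.73 among the S, G2 and mitotic entry genes and 0.66 among the centromere and checkpoint genes, and 0.089 among the G1 and S phase entry genes. Ccnb2 and Cdc20, the activator of the anaphase complex, had the highest r, 0.95, and Ccne2 and Ccnd2 the lowest, -0.68. Of the members, Ccne2, Ccnd2, E2f3 and Mki67 had the lowest mean r with the others, between 0.094 and 0.15.

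The lowest levels were found on some of the arrays numbered 2. As the median deviation from each member's mean, calcidiol-glucose 2 was at -0.20, calcitriol-glucose 2 at -0.19 and calcidiol 2 at -0.16, against -0.010, -0.079 and -0.026 over all genes, and on calcitriol-glucose 2 no member was above its mean. Calcitriol-glucose 1 followed at -0.13, against 0.0105 over all genes, with 9 members above their mean. Of the other arrays numbered 2, control 2 was at 0.012, glucose 2 at -0.012 and calcitriol 2 at 0.0415. Control 3 at 0.15, calcidiol 1 at 0.13 and control 1 at 0.12 were the highest. Calcidiol-glucose 2 and calcidiol 2 also had the highest summed signal of other-cell markers, 12.61 and 12.59, and calcitriol-glucose 2 was at 12.29. Calcidiol-glucose 1 and control 1 came next in that sum, at 12.55 and 12.48, but with members' medians of 0.0115 and 0.12. The part of these markers in the members' levels was not tested. In a split of each member's sum of squares, the group took a median of 36.7%, the replicate number 31.5% and the rest 28.6%, against 26.7%, 26.1% and 40.5% over all genes. The split has 6 groups but 3 replicate numbers and was not scaled for this, so the group and number shares are not directly comparable. For 18 of 41 members the unscaled share of the number exceeded that of the group, a count under the same limit. The share of the group was highest for E2f3, at 81.8%, and lowest for Ccnd2, at 6.49%. The share of the number was highest for Mcm7 and Ccne2, at 73.2% and 69.2%.

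**Figure D5:**
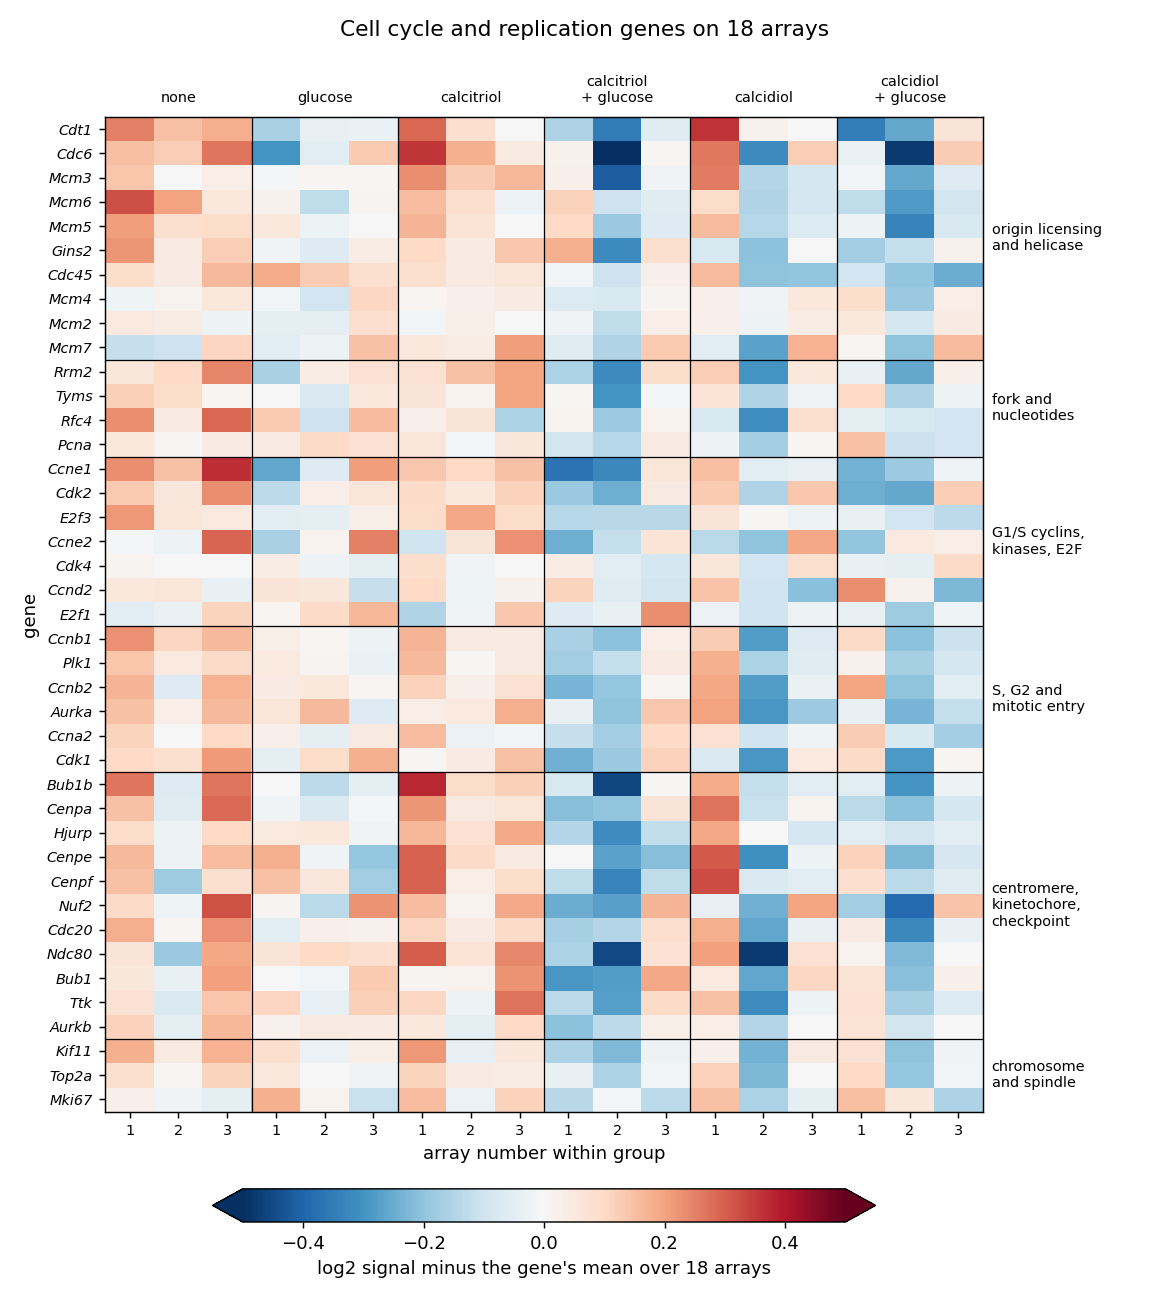
The log2 signal of each tested member minus its own mean over the 18 arrays, as colour, with genes by role in rows and arrays by group and replicate number in columns. The columns of lowest median are calcitriol-glucose 2, calcidiol 2 and calcidiol-glucose 2, from -0.20 to -0.16. Calcitriol-glucose 1 follows at -0.13, and E2f3 is blue on all 3 calcitriol-glucose arrays.

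No member was separated completely by glucose over all 18 arrays, as were 6 genes (0.0609%) with every stimulated array below every unstimulated one. Over the 12 arrays numbered 1 and 2, Cdt1, Ccne1 and E2f3 were separated in this way, against 505 genes (5.13%), a share near that of the members.

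Other genes of the cycle were read from lists of related genes. Of 40 further replication genes 37 were tested, 3 were called lower with glucose and none higher, against 1.97% of all genes called lower, and 32 were below 0 (median -0.076), against 67.0% of all genes. The 3 were Orc4 and Orc5, subunits of the origin recognition complex that Cdc6 and Cdt1 join, at -0.19 and -0.21, and Chaf1a of the chromatin assembly factor, at -0.20 (limma adjusted p = 0.039, 0.041 and 0.043). Of 52 further mitotic genes 50 were tested and none passed, and 46 were below 0, with a median of -0.094. Incenp of the chromosomal passenger complex at -0.17, Espl1 (separase) at -0.19 and Ccnf (cyclin F) at -0.18 had the smallest p there, and with the block 9 were called lower and 1 higher, against 6.61% of all genes called lower and 9.55% called. Of 17 tested further cyclins and transcription factors of the cycle none passed (median -0.075), with Skp2, a ubiquitin ligase subunit, at -0.13, E2f7, a repressor E2F, at -0.14 and Fzr1, an activator of the anaphase complex, at -0.096 first by p. Among 10 tested inhibitors and pocket proteins Rbl1, the gene of the pocket protein p107, was called lower at -0.25 (limma adjusted p = 0.039). Tob1, an antiproliferative protein, had 0.45 (limma adjusted p = 0.12), and passed with the block and on the 12 arrays (0.015 and 0.0018), where it was at 0.58. Gmnn, the inhibitor of Cdt1, had -0.11 (limma adjusted p = 0.47). All of these lists were drawn up with earlier results of these data known.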

How the data were processed

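RNA of INS1E cells, 150 ng per sample, was measured on Affymetrix arrays of rat genes, each sample on its own array. The deposited values were log2 signals, already normalised between arrays. RMA and Partek appear in the submitters' processing notes, and what each did, with its settings and version, is not given in the sources used here. From the deposit, the attached table of 17017 probe sets was used, which carries gene symbols, and its values are identical to those of the series matrix. Samples were grouped by their labels.

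Each symbol kept 1 probe set, the one of highest mean, and the lowest 25% of symbols by mean signal (below 6.38) were left out, which left 9852. The functions lmFit and eBayes of limma 3.58.1 (R 4.3.3) fitted 1 model to all 6 groups, two-sided, with 12 residual degrees of freedom. In each of 15 comparisons p-values were adjusted by Benjamini and Hochberg's method over the 9852 genes and read at 0.05. Python 3.11.15 with numpy 2.4.6, pandas 2.3.3 and matplotlib 3.10.9 made the tables and plots. The code was tested on simulated data. As a check of pairing, arrays with the same number were compared as deviations from group means, which correlated above 0.1 for every number in 8 of 9 pairs of groups (lowest r 0.053, highest 0.71), all 3 glucose pairs among them. The pairing comes from these values, not from the labels.

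Alternatives were the replicate block, other filters, quantile normalization, median centring, array weights, an intensity trend with robust estimation, the mean of probe sets, and leaving out arrays. Genes chosen for closer description were those called, those with the smallest p of their role with glucose or calcitriol, and Hjurp, E2f3, Ccnd1, Ccnd2, Mki67, Top2a and Pcna. Of these, Cdt1, Ccne1, E2f3, Hjurp, Cdc45 and Rfc4 are described in full, with values of every array, and the others by ranges or differences. The members, lists and rules were chosen with earlier results of these data known. Promoter sequences are from RefSeq on assembly GRCr8.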

Additional observations from a re-analysis of the deposited data

Results flagged for a closer look

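Mcm7, a subunit of the replicative helicase, stood out because all 3 same-numbered glucose differences were above 0 without vitamin D (0.061, 0.078 and 0.040) and all 3 were below 0 after calcitriol (-0.11, -0.19 and -0.078). The means differed by 0.1865. The interaction of calcitriol with glucose for this gene was -0.19 (95% interval -0.54 to 0.16, limma adjusted p = 1.00), so the difference did not pass its test. On the 12 arrays numbered 1 and 2 it was -0.22 (limma adjusted p = 1.00).

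Aurkb, the Aurora B kinase of the chromosomal passenger complex, was above 0 with glucose in the 3 same-numbered pairs after calcidiol (0.035, 0.053 and 0.0017) and below 0 in the 3 after calcitriol (-0.26, -0.086 and -0.067). The means differed by 0.167, and this difference was not tested. Here too the third pairs did not rise in Txnip as the other pairs did. Both genes, Mcm7 and Aurkb, were found by looking over 41 members, and the share of all genes with such signs was not counted.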

How the results depend on the processing

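The averaged glucose count of 4 members called became 11 with the replicate block, 12 with the block on the 12 arrays numbered 1 and 2, 7 with array weights, 2 without a filter, 2 with the lowest 50% left out (33 members tested), 2 with quantile normalization and 1 with median centring. It was 0 to 5 when arrays were left out, singly or by number. The count over all genes, 332, became 941, 1564 and 1171 with the block, the block on 12 arrays and array weights, 201 with the lowest 50% left out, and 30 to 806 when 1 array was left out. It was 0 without all arrays numbered 1 or all numbered 2, and 979 without those numbered 3. As shares of all genes, array weights called 11.9%, no filter 2.54%, and leaving out the lowest 50% 3.06%. The members' median stayed below 0 in all 30 alternatives, from -0.12 to -0.058. Array weights, whose estimation stopped short of its tolerance, gave 4 members called for glucose without vitamin D (10.7% of all genes) and 2 after calcitriol (3.79%), shares near the background. The block on the 12 arrays gave 6 after calcitriol (4.54% of all genes) and 1 (Cdt1) after calcidiol (2.45%). Leaving out arrays gave 0 to 1 members after calcitriol and 0 to 1 with calcidiol averaged. The other comparisons of members kept a count of 0, and beyond the averaged glucose comparison the block on all 18 arrays changed no call of a member. Cdt1, Ccne1, E2f3 and Hjurp kept their direction under all alternatives in which they were tested. They lost their calls in 14, 20, 7 and 22 of them, the cause of which was not tested. Ccnd2 (-0.0021) became 0.0315 on the 12 arrays with or without the block, 0.031 with array weights, 0.0288 with median centring, and ranged from -0.039 to 0.0372 when arrays were left out, above 0 at 0.0059, 0.011, 0.009, 0.0177, 0.0308, 0.0025 and 0.0038 besides. Mki67 (-0.0316) became 0.0229 on the 12 arrays with or without the block, with a range of -0.0931 to 0.0229. Pcna (-0.0074) became 0.0022 on the 12 arrays with or without the block and 0.0235 with median centring, and ranged from -0.0349 to 0.0077 when arrays were left out, above 0 at 0.0061, 0.0043 and 0.0052 besides. Signals near the filter are less certain.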
